A study of Mus musculus with 2 samples.

Results

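The mRNAs described here encode the machinery that brings nascent secretory proteins to the endoplasmic reticulum (ER), moves them through its membrane, removes their signal peptides and attaches N-glycans to them. They were 36 mouse genes chosen by name: every non-control probe on the arrays whose gene name was one of the 36 and whose accession was a RefSeq coding mRNA (NM_) was taken, among 18743 such mRNAs in all. All 36 were found, on 69 probes of 60 bases, and 16 of them had a single probe. By role they fell into the signal recognition particle (SRP) and its receptor (8 genes), the Sec61 translocon with Sec62 and Sec63 (6), the TRAP and TRAM proteins that sit beside the translocon (6), signal peptidase (5), oligosaccharyltransferase (OST, 7) and enzymes that make the glycan precursor (4).

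The study asked how ER stress changes which mRNAs are on polysomes, and on what scale. The cells were NIH3T3, an established line of mouse fibroblasts, grown in DMEM with 10% bovine serum. Both groups were the same line: untreated control cells, and cells given 10 µM thapsigargin for 3 h. Thapsigargin blocks the pump that returns calcium to the ER and so causes ER stress; whether the control received a vehicle was not given in the sources used here. Lysates were run through 10-40% sucrose gradients and pooled into a polysomal fraction (P, labelled with Cy3) and a fraction of free and monosomal RNA (FM, labelled with Cy5), which were hybridised together on 1 two-colour Agilent array per condition. RNA from 3 preparations was pooled for each condition, so there were 2 arrays, no replicate arrays and no test between conditions. In lysates of whole cultures, fewer cells and less RNA per cell cannot be told apart.

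Signal peptides emerging from the ribosome are bound by SRP, which delivers the ribosome to its receptor on the ER membrane and hands it to the Sec61 channel, so that translation and translocation proceed together. During passage, signal peptidase cuts off the signal peptide, and OST transfers a preassembled oligosaccharide from dolichol to asparagine residues of the chain. Several of these genes are known targets of the unfolded protein response, the programme that thapsigargin sets off through the ER stress sensors, while the PERK branch of the same response lowers protein synthesis in general.

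Log2 P/FM is the log2 ratio of polysomal to free and monosomal signal, and a value above 0 means more signal in polysomes. A averages the log2 signals of P and FM and was taken as relative mRNA abundance. An mRNA was kept when A was above 4.5 on both arrays, which held for 10033 mRNAs and for 35 of the 36 genes. Tram1 was left out by this limit, with A of 4.82 in control and 4.38 with thapsigargin. With no replicate arrays, the yardstick for a difference was the spread between probes of 1 mRNA, with a median SD of 0.32 for a change in log2 P/FM and 0.18 for a change in A over 3438 mRNAs with several probes. It covers errors of the array alone, not those of cells or gradients, and 1 array per condition limits how precise any value can be.

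Over all 10033 mRNAs, median log2 P/FM was 0.34 in control and -0.29 with thapsigargin, and the median change was -0.71. The median change in A was 0.37, so changes of the 35 genes are also given relative to these medians. The treatment showed in its known targets: A rose by 1.96 for Hspa5, the ER chaperone BiP, by 3.71 for Ddit3 (CHOP) and by 4.19 for Herpud1, and log2 P/FM of Atf4 went from -1.60 to 1.83. All 8 fibroblast markers passed the limit on A, against 0 of 4 epithelial, 0 of 3 endothelial and 2 of 3 leukocyte markers, Cd68 with A of 5.60 and Cd3e with A of 6.06 in control. Of the 36 genes, 7 had a probe that was not well above background in at least 1 of its 4 signals, namely Srprb, Sec62, Sec63, Ssr1, Tram1, Rpn1 and Gfpt1.

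In signals without normalization, most of the machinery's mRNAs moved from the polysomal side to the free and monosomal side, a direction that turned when the arrays were scaled to spike-in probes. In control cells 25 of the 35 (71.4%) had log2 P/FM above 0, with a median of 0.49, where 63.5% of all mRNAs did. With thapsigargin 8 of 35 (22.9%) did, with a median of -0.47, where 37.4% of all mRNAs did. The change was negative for 31 of 35 (88.6%), against 70.7% of all mRNAs, with a median of -1.16, or -0.45 relative to the median of all mRNAs. Applying the limits used in the study, 25 of 35 mRNAs (71.4%) were sensitive, that is log2 P/FM changed by -0.8 or lower, where 47.0% of all mRNAs did so. None of the 35 was resistant (log2 P/FM at least 0.8 in control and with thapsigargin), where 3.00% of all mRNAs were, and 2 of 35, Stt3a and Gfpt1, were inducible (0 or lower in control and a rise of 1 or more), where 8.86% of all mRNAs were. Just inside the limit for sensitive mRNAs lay Dpagt1 at -0.82 and Stt3b at -0.84, and just outside it Srp54a at -0.77. The next outside was Alg2, farther off at -0.48.

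These signs hold for signals without normalization between channels, which is how the study used them. When each channel was scaled to the 10 positive-control spike-in probes, the median change was 1.77 for all mRNAs and 1.32 for the 35 genes. Of the 35, 0 were then sensitive, where 0.77% of all mRNAs were. That scaling shifts every mRNA by the same amount, so the median of the 35 relative to all mRNAs, -0.45, could not change. After loess within each array that relative median was -0.30, and 10 of 35 were sensitive (28.6%), against 27.2% of all mRNAs. With the processed signals of the scanner software 14 of 36 were sensitive (38.9%), against 33.3%. The higher share of sensitive mRNAs in the machinery thus depended on the normalization. Directions below are therefore relative to all mRNAs where they are stated as higher or lower than the rest.

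**Figure D1:**
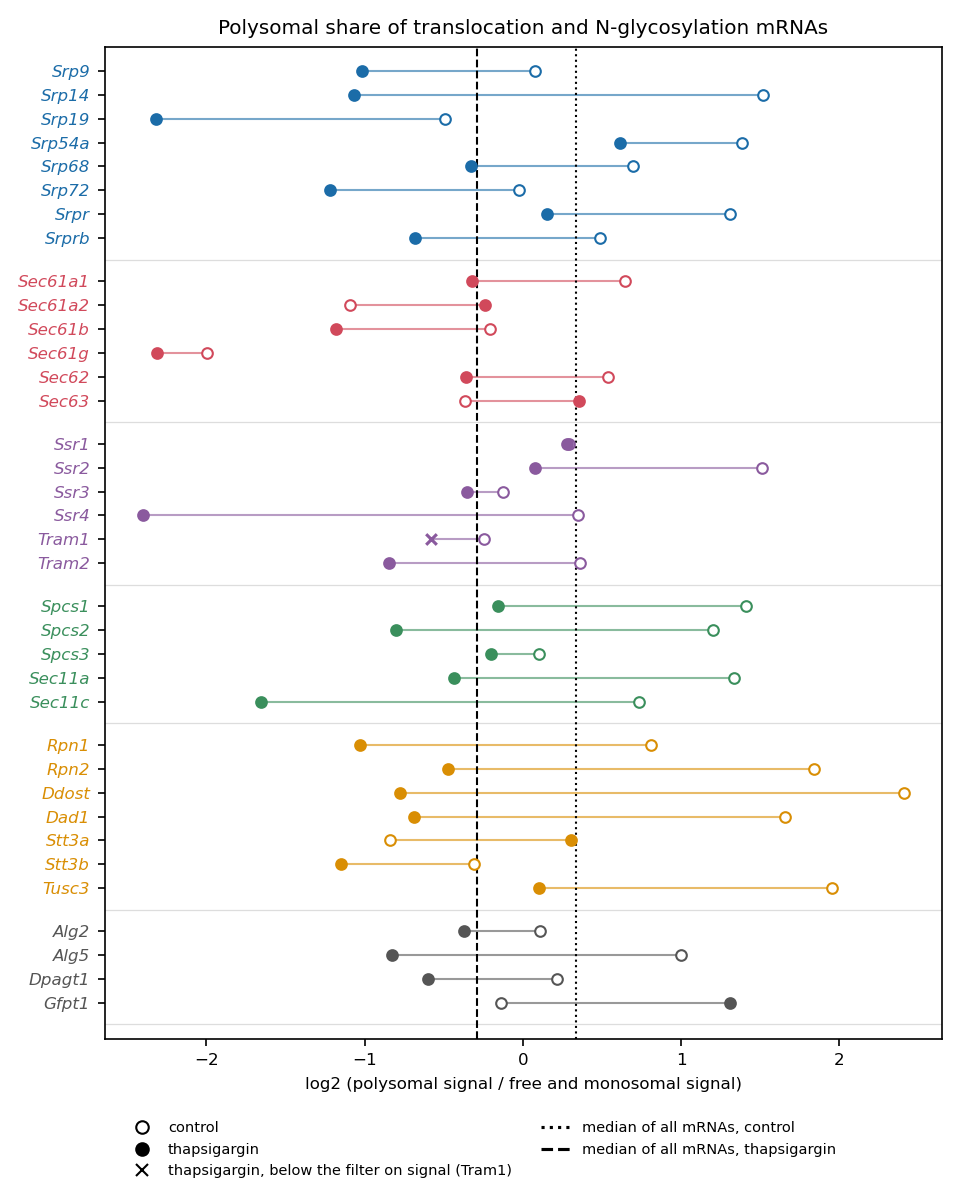
Log2 ratio of polysomal to free and monosomal signal (horizontal axis) of the 36 genes, ordered by role, in control (open circles) and with thapsigargin (filled circles, a cross for Tram1, which was below the limit on signal). The dotted and dashed lines are the medians of all 10033 mRNAs on the control and thapsigargin arrays, 0.34 and -0.29. The lines of Sec61a2, Sec63, Stt3a and Gfpt1 run to the right, and the longest line is that of Ddost, from 2.41 to -0.77.

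In signals without normalization, the difference lay in the FM fraction more than in the polysomal one. The median change in log2 signal was -0.02 in polysomes and 0.98 in the FM fraction, where all mRNAs had medians of 0.02 and 0.72. FM signal was at least doubled (a change of 1 or more) for 17 of 35 mRNAs (48.6%), against 32.4% of all mRNAs, and was higher at all in 32 of 35 (91.4%), against 86.6%. Polysomal signal was up by 1 or more for 3 of 35, Sec63, Stt3a and Gfpt1, and down by 1 or more for 3 others, Ssr2, Ssr4 and Dad1, which is 8.57% each way, where 16.7% and 12.8% of all mRNAs were. Per the labels, the RNA of both fractions that went into labelling came to 300 ng in all for each condition. The methods of the study state that P and FM RNA were labelled in the proportion found after the gradient, with more P RNA in control and more FM RNA with thapsigargin. The RNA input of each channel therefore differed between the conditions, and signals carry no scale of RNA per cell. Which fraction a difference lies in also depends on the scaling of the channels: scaled to the spike-in probes, the median changes of the 35 genes were 1.49 in polysomes and 0.01 in the FM fraction, and those of all mRNAs 1.53 and -0.25. Statements below on single fractions are of signals without normalization.

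**Figure D2:**
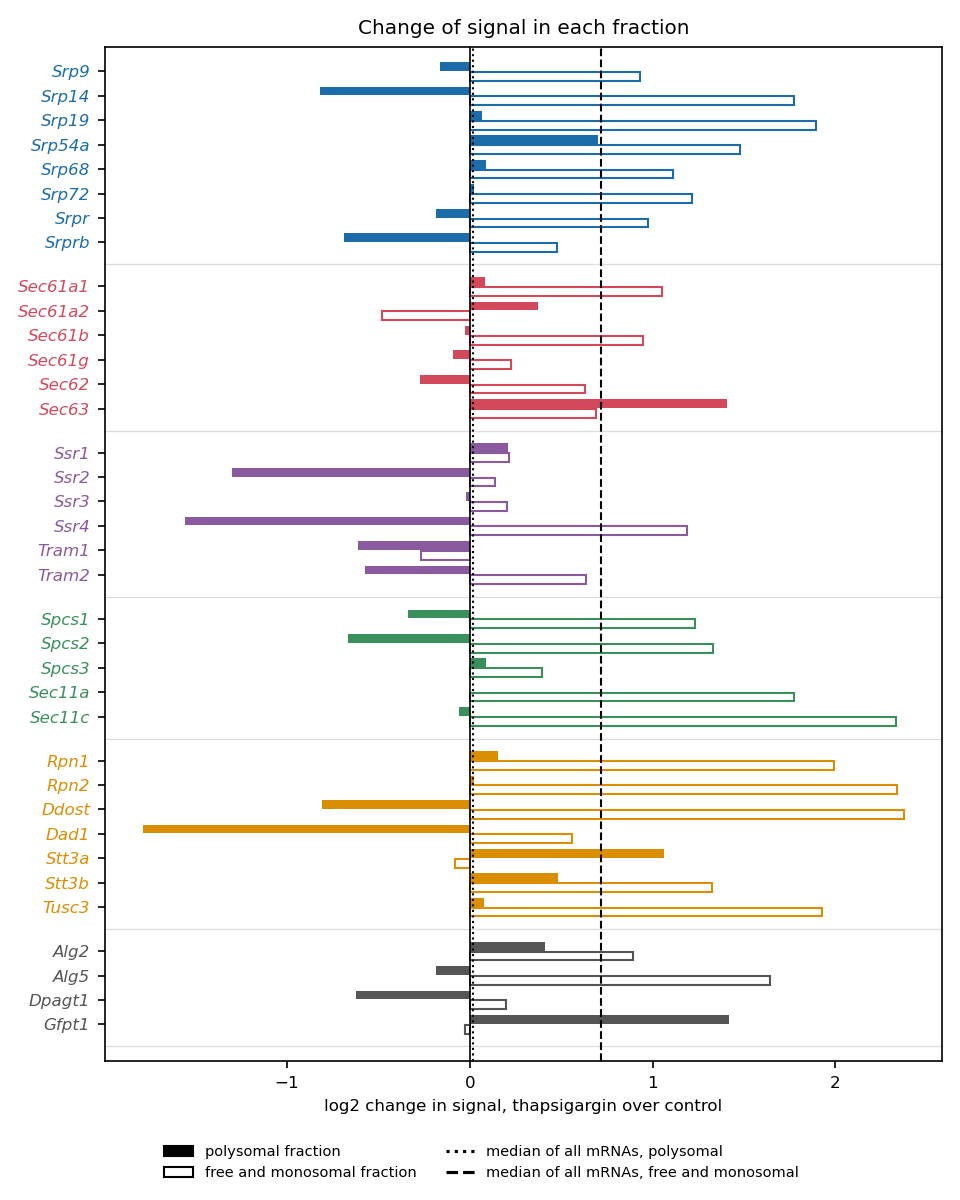
Change in log2 signal with thapsigargin (horizontal axis, thapsigargin over control) of each of the 36 mRNAs in the polysomal fraction (filled bars) and in the free and monosomal fraction (open bars). The dotted and dashed lines are the medians of all mRNAs, 0.02 and 0.72. Long open bars with filled bars near 0 mark Rpn2, Tusc3, Sec11c and Sec11a, and the filled bars of Dad1 and Ssr4 reach farthest to the left.

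In abundance, the median change in A was 0.48 without normalization, or 0.10 above the median of all mRNAs. Its sign depended on the processing: it was -0.21 with normexp background correction, under which it stood 1.27 above all mRNAs, dim ones included, and -0.0075 after centring both arrays. A was higher by 1 or more for 6 of 35 mRNAs (17.1%), where 11.7% of all mRNAs were: Srp54a, Sec63, Sec11c, Rpn1, Rpn2 and Tusc3. None of the 35 was lower by 1 or more, where 0.698% of all mRNAs were. Tusc3 at 1.003 lay just inside the limit, and Srp19 at 0.98 just outside it. With the log2 of the summed signals in place of A, those higher by 1 or more were Rpn1, Sec11c, Sec63, Srp19 and Stt3b. Of all mRNAs 11.6% were. Srp54a, Rpn2 and Tusc3 then fell short, at 0.96, 0.92 and 0.70. With both arrays centred on their medians, 0 of 35 were higher by 1 or more, where 2.27% of all mRNAs were. Of the 35, 2 were lower by as much, and that share over all mRNAs was not computed.

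**Figure D3:**
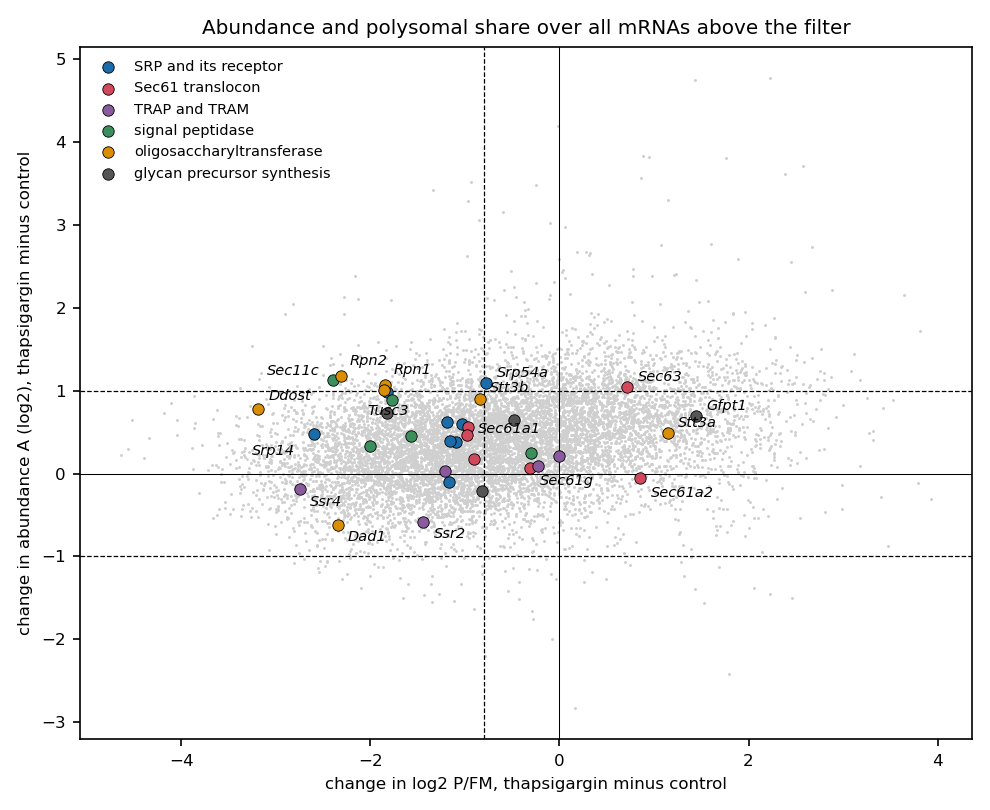
Change in abundance A (vertical axis, log2) against change in log2 P/FM (horizontal axis) for all 10033 mRNAs (grey) and the 35 genes above the limit, coloured by role. Dashed lines mark changes in A of 1 and -1 and a change in log2 P/FM of -0.8. OST genes Rpn1, Rpn2 and Tusc3 lie above the upper line and left of the vertical one, Sec63 lies above the upper line on the right side, and no gene lies below the lower line.

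SRP and its receptor moved together. The change in log2 P/FM was below the median of all mRNAs for all 8 mRNAs (not for Srp9 after loess or with the processed signals of the scanner software, at 0.23 and 0.43 relative to that median), from -0.77 for Srp54a to -2.59 for Srp14, and 7 of 8 were sensitive. Their median change was -1.16, or -0.45 relative to all mRNAs, and median log2 P/FM of the 8 was 0.59 in control and -0.85 with thapsigargin.

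Srp14, which with Srp9 forms the Alu domain that slows elongation, changed most among them. Polysomal signal of Srp14 was 5114 in control and 2899 with thapsigargin, and its FM signal was 1783 and 6084, so that the larger signal passed from polysomes to the FM fraction. Log2 P/FM was 1.52 and then -1.07, while A was 0.48 higher. Srp9 itself went from 0.08 to -1.02 on 2 probes with changes of -0.91 and -1.28.

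Srp19, which helps assemble the particle on its RNA, had the lowest log2 P/FM of this group on both arrays, -0.49 and -2.32. Its polysomal signal was nearly level, 1120 in control and 1175 with thapsigargin, whereas its FM signal rose from 1575 to 5860.

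Srp54a, the GTPase that binds the signal peptide, was the single SRP mRNA with a change in A of 1 or more, at 1.09. Srp54a had polysomal signals of 198 in control and 322 with thapsigargin, and FM signals of 75.6 and 211, so both fractions were higher. Its change in log2 P/FM of -0.77 was -0.06 relative to all mRNAs, and its 2 probes gave -0.82 and -0.72. Srp54a has close genomic copies, Srp54b and Srp54c, which its probes may also read.

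The protein-binding core Srp68 and Srp72 went from 0.70 to -0.33 and from -0.03 to -1.22. The 3 probes of Srp72 agreed within a probe SD of 0.11. Srpr, the receptor subunit that meets SRP, kept a log2 P/FM above 0, at 1.31 and 0.15. Srprb, which anchors it in the membrane, went from 0.49 to -0.68 and had the lowest change in A of the group, -0.11. Polysomal signal of Srprb was 132 and 81.6 and its FM signal 93.9 and 131. Its 3 probes gave -1.66, -1.61 and -0.22, the last from a probe that was not well above background.

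The Sec61 translocon was the group with the lowest median log2 P/FM in control, -0.28, against 0.34 for all mRNAs and 0.16 for the glycan precursor enzymes, the next in order. With thapsigargin its median was -0.34. The median change of its 6 mRNAs was -0.61, or 0.11 relative to all mRNAs, and 3 of 6 were sensitive. After loess within each array that relative median was 1.03, and with the processed signals of the scanner software 1.05.

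The 3 channel subunits differed. Sec61a1, the main pore subunit, had polysomal signals of 562 and 596 and FM signals of 359 and 744, and its log2 P/FM went from 0.65 to -0.32. Its 3 probes gave changes of -1.46, -0.87 and -0.57. Sec61b, a small subunit of the channel, had polysomal signals of 4617 and 4528 and FM signals of 5323 and 10254. Sec61g, the small subunit that clamps the pore, was by far on the FM side in both conditions, with polysomal signals of 9799 and 9188 and FM signals of 39163 and 45705. Only 2.19% of all mRNAs had a log2 P/FM below its -2.00 in control, and its change was -0.32.

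Sec61a2, the second gene for the pore subunit, moved the other way in signals without normalization. In polysomes its signal was 81.1 in control and 105 with thapsigargin, and its FM signal was 173 and 124. Log2 P/FM thus went from -1.09 to -0.24, a change of 0.85, where Sec61a1 changed by -0.97. The changes differed by -1.82 (Sec61a1 minus Sec61a2), against a median probe SD of 0.32, but Sec61a2 had 1 probe, so its own spread is unknown. On the thapsigargin array log2 P/FM of the paralogs differed by -0.08, and in control by 1.74.

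Sec62 and Sec63 assist the channel and, with BiP, the entry of poorly targeted proteins. Sec62 was dim, with signals between 38.0 and 58.8, and went from 0.54 to -0.36. Sec63 had the highest change in A of this group, 1.05. Its polysomal signal was 83.5 and 221 and its FM signal 107 and 173, both higher with thapsigargin. Its log2 P/FM went from -0.36 to 0.35, but its 3 probes gave -0.40, 0.48 and 2.07, the last from a probe not well above background, so the sign of that change was not settled by the probes.

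TRAP, a membrane complex that helps some signal peptides open the channel, was not of a piece. Ssr4 changed most of the whole group, by -2.75. The polysomal signal of Ssr4 was 8689 in control and 2947 with thapsigargin, and its FM signal was 6834 and 15569. Log2 P/FM went from 0.35 to -2.40, with only 2.98% of mRNAs lower, and its 2 probes gave -2.80 and -2.70. These 2 probes share most of their bases, so their agreement is close to a repeat of 1 reading. Ssr2 had polysomal signals of 1992 and 809 beside level FM signals of 698 and 768, and its change in A was -0.58, with only 3.38% of mRNAs lower.

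For Ssr1 and Ssr3 the probes disagreed. The 5 probes of Ssr1 ranged from -1.82 to 1.10 around a mean change of -0.01, and the 3 of Ssr3 were -1.53, 0.35 and 0.50 around -0.23. Ssr1 had polysomal signals of 121 and 139 and FM signals of 98.6 and 115, and the highest change in A of the group, 0.21. Over the 35 genes, 19 had several probes, and for 4 of these the probe SD of the change was above 1: Sec63, Ssr1, Ssr3 and Rpn1. Which transcripts the divergent probes read was not tested.

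TRAM proteins contact signal peptides inside the membrane. Tram2 went from 0.36 to -0.85, with polysomal signals of 715 and 481 and FM signals of 558 and 865. Tram1, below the limit on A, had signals between 17.0 and 30.7, and its 3 probes ranged from -1.57 to 0.33. The median change of the 5 TRAP and TRAM mRNAs that passed was -1.20, or -0.49 relative to all mRNAs. This relative value was 0.00 when only probes well above background were used, a setting in which Tram1 passed as well. It was 0.62 when each probe counted by itself and 0.31 with the processed signals of the scanner software. Its direction thus depended on the processing. Their change in A, with a median of 0.03, was below the median of all mRNAs in 5 of 5.

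**Figure D4:**
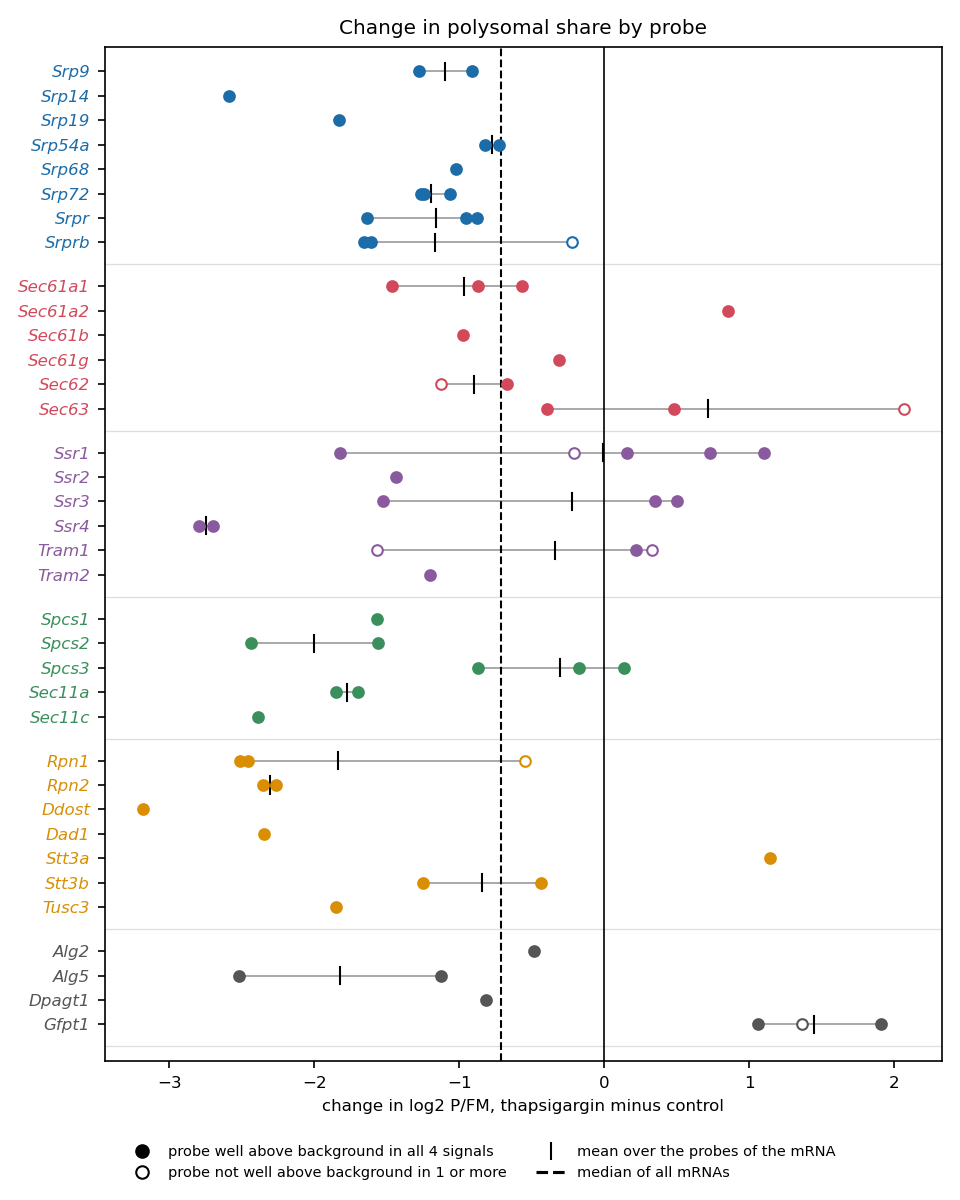
Change in log2 P/FM (horizontal axis) of each of the 69 probes of the 36 genes; open circles are probes not well above background in at least 1 of 4 signals, black bars are the means used for genes with several probes, and the dashed line is the median of all mRNAs, -0.71. Probes of Ssr4, Rpn2, Sec11a and Srp72 lie close together, and those of Ssr1, Ssr3 and Sec63 lie on both sides of 0.

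In signals without normalization, signal peptidase was on the polysomal side in control and off it with thapsigargin in every case. After spike-in scaling Sec11a, Spcs1 and Spcs2 were instead resistant, with log2 P/FM of at least 0.8 on both arrays. The values that follow are without normalization unless another setting is named. All 5 mRNAs had log2 P/FM above 0 in control and below 0 with thapsigargin, which held for 38.6% of all mRNAs. The median went from 1.20 to -0.44, the median change of -1.77 was -1.06 relative to all mRNAs (-0.10 with the processed signals of the scanner software and -0.30 after loess), and 4 of 5 were sensitive.

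Sec11c, a catalytic subunit alternative to Sec11a, had the largest change of the group, -2.39, and the largest change in A, 1.13. Its polysomal signal was 139 and 133 and its FM signal 83.4 and 419, a difference of the FM fraction in these signals, whereas after spike-in scaling Sec11c changed by 1.45 in polysomes and 1.36 in the FM fraction. Its paralog Sec11a showed the same form at higher signal, with 2365 and 2364 in polysomes and 938 and 3203 in the FM fraction. The change of Sec11a was -1.77, which is 0.62 from that of Sec11c, and A of both was higher, by 0.89 and 1.13. Sec11c had 1 probe and Sec11a 2, with changes of -1.85 and -1.70.

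Without normalization, the non-catalytic subunits went the same way to different extents. Spcs1 went from 1.41 to -0.16, a change that was 0.12 relative to all mRNAs after loess, and Spcs2, which contacts the channel, from 1.20 to -0.80. Spcs3, needed for cleavage, changed least, by -0.30, with polysomal signals of 149 and 159 and FM signals of 139 and 183, and its 3 probes ranged from -0.87 to 0.14. It also had the lowest change in A of the group, 0.24.

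OST showed the largest median shifts of the 6 groups in both measures, although signal peptidase lay close behind in log2 P/FM and came first there with normexp background correction, without background subtraction and with the deposited log2 ratios. Its median log2 P/FM was 1.66 in control, the highest of the groups, and -0.69 with thapsigargin. The median change of -1.85 was -1.14 relative to all mRNAs, and 6 of 7 were sensitive. The median change in A of 0.91 was 0.53 above that of all mRNAs, and 3 of 7 were higher by 1 or more. The relative change in A was 0.33 when A was replaced by the log2 of the summed signals.

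Ddost, a subunit needed for the complex to hold together, had the largest change in log2 P/FM of all 35 genes, -3.18, with only 1.03% of mRNAs lower. Polysomal signal of Ddost was 4399 in control and 2513 with thapsigargin, and its FM signal was 828 and 4298. It was the most polysomal of the 35 in control, at 2.41, and stood at -0.77 with thapsigargin. Ddost was measured by 1 probe.

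The ribophorins Rpn1 and Rpn2 were named for their association with ribosomes on the rough ER, and A of both was higher by over 1. Rpn2 had polysomal signals of 2096 and 2134 and FM signals of 586 and 2957, a rise of 5.04 times in the FM fraction beside level polysomal signal. Its log2 P/FM went from 1.84 to -0.47, its A was higher by 1.18, the largest change in A of the 35, and its 2 probes agreed at -2.27 and -2.35. Rpn1 had polysomal signals of 445 and 495 and FM signals of 254 and 1011. The bright probes of Rpn1 gave changes of -2.51 and -2.46 and a dim probe -0.55, so its mean of -1.84 is smaller than the bright probes show.

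Dad1, the small subunit named for the cell death that follows its loss, differed from the rest of OST in abundance. Its polysomal signal was 7741 in control and 2241 with thapsigargin, and its FM signal 2450 and 3605. Log2 P/FM went from 1.66 to -0.69, and its change in A was -0.62, with only 2.88% of mRNAs lower. Tusc3, a subunit with oxidoreductase activity, resembled Rpn2, with polysomal signals of 501 and 529 and FM signals of 130 and 493. Its paralog Magt1, which is not among the 36 genes, changed in log2 P/FM by -0.24 where Tusc3 changed by -1.85, and both were higher in A, by 0.83 and 1.00.

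In signals without normalization, the catalytic subunits Stt3a and Stt3b went in opposite directions. Stt3a acts on chains as they pass through the channel, and Stt3b on sites that were skipped. Stt3a had polysomal signals of 75.2 and 157 and FM signals of 135 and 127. After spike-in scaling Stt3a changed by 2.58 in polysomes and -1.05 in the FM fraction. Its log2 P/FM went from -0.84 to 0.30, a change of 1.14. Stt3b had polysomal signals of 295 and 412 and FM signals of 364 and 914, and its log2 P/FM went from -0.31 to -1.15, a change of -0.84. The changes differed by 1.99 (Stt3a minus Stt3b), against a probe SD of 0.58 for Stt3b, while Stt3a had 1 probe. Relative to all mRNAs Stt3a changed by 1.86 and Stt3b by -0.13.

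These values rest on the probe sequences below. They are shown for the Stt3 paralogs, which moved in opposite directions in signals without normalization, and for Rpn2 and Ssr4. Probes of these 2 agreed best among the large changes, though those of Ssr4 share most of their bases. Positions are those of the array files (mouse genome mm9). Genomic spans of the Rpn2 and Ssr4 probes, 2244 and 298 bases for 60 bases of probe, show that they cross an intron and so read spliced RNA; exon or UTR status of the others was not annotated here.
Stt3a probe (NM_008408, chr9:36549326-36549385, minus strand): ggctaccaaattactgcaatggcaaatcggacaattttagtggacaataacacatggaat
Stt3b probe (NM_024222, chr9:115155254-115155313, minus strand): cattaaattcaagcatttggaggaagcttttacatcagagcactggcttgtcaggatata
Rpn2 probe (NM_019642, chr2:157135972-157138215, plus strand): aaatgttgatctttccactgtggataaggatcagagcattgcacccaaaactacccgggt
Ssr4 probe (NM_009279, chrX:71035449-71035746, plus strand): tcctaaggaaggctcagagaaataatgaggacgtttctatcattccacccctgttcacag
The change in log2 P/FM on these probes was 1.14 for Stt3a, -1.25 for Stt3b, -2.27 for Rpn2 and -2.80 for Ssr4. The second Stt3b probe gave -0.44.

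Glycan precursor enzymes were mixed. Their 4 mRNAs had a median change in log2 P/FM of -0.65, or 0.06 relative to all mRNAs, and a median change in A of 0.67. Gfpt1, the entry enzyme of hexosamine synthesis, had the largest positive change of the 35, 1.45. Gfpt1 signal in polysomes was 47.5 in control and 127 with thapsigargin, and its FM signal was 52.3 and 51.3, so in these signals the polysomal one was the one that rose. After spike-in scaling Gfpt1 changed by 2.93 in polysomes and -0.997 in the FM fraction. Its log2 P/FM of 1.31 with thapsigargin was the highest of the 35, and its 3 probes gave 1.06, 1.37 and 1.91, of which the middle one was not well above background in every signal.

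Alg5, which makes the glucose donor for the last steps of the precursor, went from 1.00 to -0.82, with polysomal signals of 482 and 424 and FM signals of 241 and 751, and had the highest change in A of the 4, 0.73. Its 2 probes gave -1.13 and -2.52. Dpagt1, the enzyme of the committed first step, had the lowest change in A, -0.21, with polysomal signals of 1626 and 1057 and FM signals of 1400 and 1605. Its log2 P/FM went from 0.22 to -0.60. Alg2, a mannosyltransferase, went from 0.11 to -0.37.

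Sequences upstream of these genes were searched for letters linked to ER stress. The table of promoters from RefSeq (GRCm38.p6, 250 bases before to 50 bases after each start) held 26 of the 36 genes. On either strand, none of the 26 held the ER stress response element (CCAAT, then any 9 bases, then CCACG), which 0.119% of all 32851 promoters hold. None held its second form (ATTGG, any base, CCACG), the core TGACGTGG of the UPR element or the core TGATGNAA of the amino acid response element, which are in 0.0365%, 0.676% and 3.97% of promoters. These letters were absent from these windows, and nothing follows from that about the factors. The CCAAT box alone, which is part of the first element, was in 14 of 26 (53.8%), against 37.4% of all promoters, and CCACG alone, searched after the promoters had been seen, in 18 of 26 (69.2%), against 32.8%. Shares of the 26 are of genes, counted when any listed start held the letters, while those of all promoters are of single starts. A gene with more than 1 start, such as Rpn2, is counted more readily, so these shares are not of like units.

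All 6 OST genes in the table held a CCAAT box. In the other groups 3 of 6 SRP and receptor genes did, 2 of 5 of Sec61 and 1 of 4 of TRAP and TRAM. So did 1 of 3 signal peptidase genes and 1 of 2 glycan precursor genes. The 150 bases before the OST starts are shown because OST was the group with the largest shifts. Capitals mark CCAAT or CCACG on either strand (ATTGG and CGTGG on the strand shown). Rpn2 had a further start in the table, which is not shown.
Rpn1 (chr6:88084323-88084472, plus strand): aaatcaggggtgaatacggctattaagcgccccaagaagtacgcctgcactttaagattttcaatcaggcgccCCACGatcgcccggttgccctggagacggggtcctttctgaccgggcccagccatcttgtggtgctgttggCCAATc
Rpn2 (chr2:157278948-157279097, plus strand): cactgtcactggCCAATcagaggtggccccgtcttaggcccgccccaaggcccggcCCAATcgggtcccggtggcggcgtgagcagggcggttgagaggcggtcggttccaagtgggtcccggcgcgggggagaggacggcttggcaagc
Ddost (chr4:138304588-138304737, plus strand): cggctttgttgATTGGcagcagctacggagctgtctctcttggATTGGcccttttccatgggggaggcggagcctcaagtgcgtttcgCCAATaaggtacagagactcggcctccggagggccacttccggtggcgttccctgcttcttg
Dad1 (chr14:54253930-54254079, minus strand): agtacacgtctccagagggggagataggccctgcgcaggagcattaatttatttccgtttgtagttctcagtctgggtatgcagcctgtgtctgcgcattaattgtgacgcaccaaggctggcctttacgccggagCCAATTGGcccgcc
Stt3a (chr9:36767623-36767772, minus strand): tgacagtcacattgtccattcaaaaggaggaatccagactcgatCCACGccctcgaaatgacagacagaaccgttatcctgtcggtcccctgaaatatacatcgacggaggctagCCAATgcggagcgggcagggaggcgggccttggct
Stt3b (chr9:115310469-115310618, minus strand): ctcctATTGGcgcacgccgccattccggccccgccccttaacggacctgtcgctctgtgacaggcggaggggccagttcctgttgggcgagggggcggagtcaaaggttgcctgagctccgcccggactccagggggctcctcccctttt
Ddost had 3 CCAAT boxes in this stretch, 139, 107 and 62 bases before the start, and Rpn2 had 2, at 138 and 94 bases. In Dad1 the box reads on both strands in overlapping letters. Stt3a and Rpn1 had CCAAT at 35 and 6 bases and CCACG at 106 and 77 bases. In signals without normalization they changed in log2 P/FM in opposite directions, by 1.14 and -1.84. Dad1, Ddost and Stt3b also held CCACG in the window searched, but outside the stretch shown. Any link between these letters and the changes was not tested.

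The machinery was brighter than most mRNAs, and brightness went with the change in log2 P/FM. Median A in control was 8.41 for the 35 genes and 7.40 for all mRNAs. Among all mRNAs the median change was -0.24 for a mean A of 4.5 to 7, -0.67 for 7 to 9, -1.26 for 9 to 11, -1.71 for 11 to 13 and -1.99 above 13. Within the same ranges the medians of the 35 genes were 0.42 (6 genes), -1.09 (12), -1.32 (10), -2.47 (6) and -0.32 (Sec61g alone). In all, 20 of 35 lay below the median of their range. The part of brightness in the shift of the 35 genes was not tested further.

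**Figure D5:**
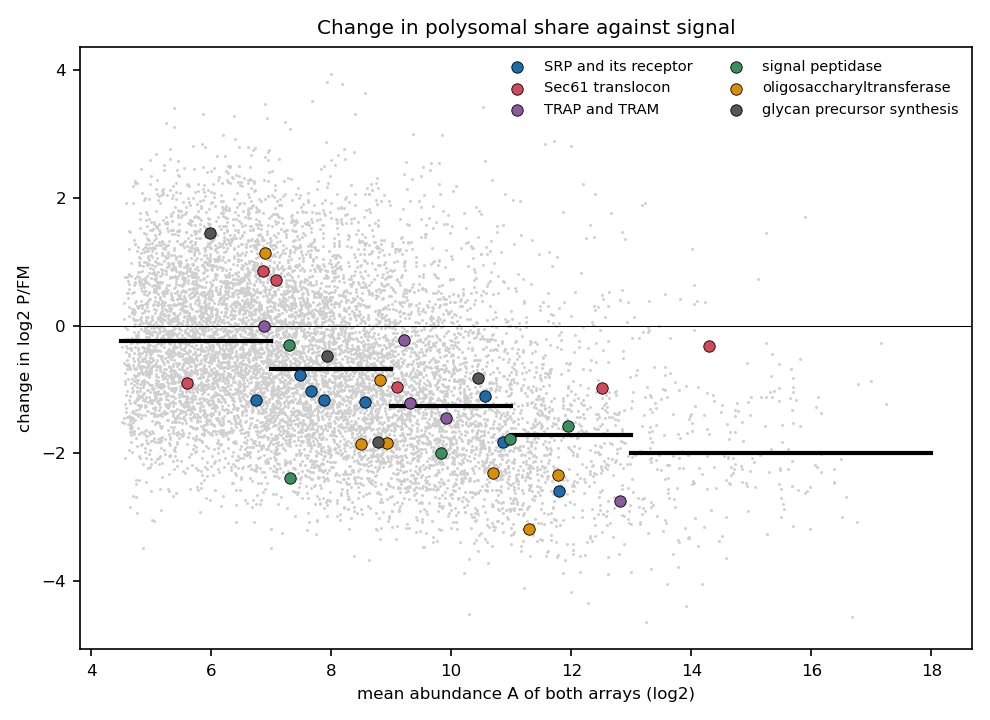
Change in log2 P/FM (vertical axis) against mean abundance A of both arrays (horizontal axis, log2) for all 10033 mRNAs (grey) and the 35 genes, coloured by role; black bars are the medians of all mRNAs in 5 ranges of A. The bars descend from -0.24 to -1.99, and 20 of the 35 genes lie below the bar of their range.

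Across the 35 genes, those most polysomal in control changed most: Pearson's r between log2 P/FM in control and its change was -0.69 (Spearman's rho -0.71), where it was -0.60 over all mRNAs (rho -0.62). The control value enters both measures and all points come from the same pair of arrays, so this is a description. Between the changes in A and in log2 P/FM, r was -0.08 among the 35 (rho -0.15) and 0.32 over all mRNAs (rho 0.35).

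Other genes of the pathway, from a list of 62 names, were measured for comparison, and 53 of the 56 on the array passed the limit on A. Their median change in log2 P/FM was -1.04 and 33 of 53 were sensitive, beside 25 of the 35 genes above and 47.0% of all mRNAs. The ER membrane complex, an insertase for membrane proteins, had a median change of -1.83 and 7 of 9 sensitive. Tail-anchor insertion factors had a median of -1.92, with 6 of 7 sensitive. Further OST subunits (4) had a median of -1.28, and the enzymes of lipid-linked oligosaccharide synthesis (18) one of -0.84. Enzymes that make sugar donors (8) had a median of -0.90, glycan trimming enzymes (5) one of -0.30, and the nascent polypeptide-associated complex (2), which shields chains at the ribosome, one of -2.11.

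A change in A of 1 or more was found for 3 of the 53, where 11.7% of all mRNAs were higher by as much: Alg12 at 1.59 and Alg1 at 1.08, both mannosyltransferases of the precursor, and Uggt1, the folding sensor that reglucosylates glycoproteins, at 1.29. Alg12 and Alg1 changed in log2 P/FM by -0.75 and -1.81. The 2 probes of Alg12 had an SD of 0.84 for the change in A and 0.59 for that in log2 P/FM, and Alg1 had 1 probe. Uggt1 changed by 1.37, from 0.59 to 1.96, although a signal of it was not well above background. The SD of that change between its 2 probes was 1.495, larger than the change, so its direction was not settled.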

How the data were processed

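The authors labelled P with Cy3 and FM with Cy5 and scanned the arrays with Agilent Feature Extraction 10.7.1, per the labels. The deposited spot intensities, mean signal and local background of each channel, are not normalized. Background was subtracted, with values under 0.5 set to 0.5, log2 was taken, and spots with an outlier flag were left out (295, 0.680%). Spots were averaged by probe and probes by accession, after the study's methods, and A had to exceed 4.5 on both arrays, where 0 of 153 negative-control spots did. Log2 P/FM and A were not normalized. The deposited value table of log2 ratios was used as an alternative. Scripts ran in Python 3.11.15, with limma 3.58.1 in R 4.3.3 for normexp and loess, and were tested on simulated data. The genes, lists and limits were chosen with earlier results of these data known. All 36 genes, those with extreme changes in each group and those with a change in A of 1 or more are named; other pathway genes only where A changed by 1 or more. Sequences came from the array files and RefSeq (GRCm38.p6). Protein length and identity were not analysed here.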

Additional observations from a re-analysis of the deposited data

How the results depend on the processing

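With 1 array per condition no replicate could be left out. No paired analysis was possible because the groups shared fewer than 2 replicate numbers. Scaling between the channels sets the sign of the change in log2 P/FM. Dim probes limit what can be said of Srprb, Sec62, Sec63, Ssr1, Tram1, Rpn1 and Gfpt1, whose signals were partly not well above background. All alternatives but one were chosen at the outset, and the use of only probes well above background was chosen after seeing the data. Protein length was not run. The cause of a moved value was not tested, except where the setting itself fixes it, as centring and loess do for the median of all mRNAs. Relative values are relative to the median of all mRNAs under the same setting. Of 345 values of the groups and of the whole set under the alternatives, 262 stayed within the spread between probes or within 1.5 times the count. Of 949 values of single genes, 768 did so, 162 moved farther and 19 turned. Relative values of genes and groups could not move under centring or spike-in scaling, which shift all mRNAs alike, nor in A under loess. These totals thus count values that were fixed beforehand. With normexp 1 of 35 relative changes in A stayed within the spread, and without background subtraction 10 did. In log2 P/FM 14 and 16 did. The median spot signal, outlier spots kept, A above 5.5 and the deposited log2 ratios moved no value of the groups or of the whole set.

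With normexp and an offset of 50, all 18743 mRNAs passed the limit on A, dim ones included, and their median changes were 0.33 in log2 P/FM and -1.48 in A. The median change in log2 P/FM of the machinery was then -0.68, and its relative value -1.02. By group the relative values were -0.97 for SRP, -0.36 for Sec61, -0.82 for TRAP and TRAM, -1.78 for signal peptidase, -1.62 for OST and -0.72 for the glycan precursor enzymes. Relative log2 P/FM in control was 0.55, and 1 gene was inducible. The median change in A was -0.21, or 1.27 relative, with 0 genes higher and 3 lower by 1 or more. Of all mRNAs 0.68% were higher by as much. By group the relative change in A was 1.36 for SRP, 1.20 for Sec61, 0.91 for TRAP and TRAM, 1.51 for signal peptidase, 1.70 for OST and 1.21 for the glycan precursor enzymes. Genes whose relative change in A turned positive were Dad1 at 0.81, Dpagt1 at 1.13, Srprb at 0.49, Ssr4 at 1.27, Sec61g at 1.53, Sec61a2 at 0.47, Ssr2 at 0.71, Sec62 at 0.20 and Tram2 at 1.20. Sec61g turned to -0.66 in relative log2 P/FM.

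Without background subtraction all 18743 mRNAs passed too. The relative change in log2 P/FM was -0.84 for the machinery, -0.89 for SRP, -1.55 for signal peptidase and -0.43 for the glycan precursor enzymes. Relative log2 P/FM in control was 0.61, with 0 genes inducible. The relative change in A was 0.39 for the machinery, 0.43 for SRP, 0.23 for Sec61, -0.11 for TRAP and TRAM, 0.39 for signal peptidase and 0.76 for OST, with 2 genes higher by 1 or more. Of all mRNAs 3.01% were higher by as much. Sec61g turned in both measures, to -0.15 in log2 P/FM and 0.0114 in A, and Sec62 turned to 0.066 in A.

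With the processed signals of Feature Extraction the median change in log2 P/FM was -0.43, and relative values were 1.05 for Sec61, 0.31 for TRAP and TRAM, -0.10 for signal peptidase, -0.69 for OST and 0.51 for the glycan precursor enzymes. There were 14 sensitive, 1 resistant and 4 inducible genes. The median change in A was 0.0881, with 0 genes higher and 1 lower by 1 or more, where 4.84% of all mRNAs were higher. Srp9, Ssr2 and Spcs1 turned, to relative changes in log2 P/FM of 0.43, 0.0946 and 0.29. After loess the median change was -0.45, with relative values of 1.03 for Sec61, -0.30 for signal peptidase and -0.81 for OST, with 10 sensitive and 5 inducible genes, and Srp9 and Spcs1 turned to 0.23 and 0.12.

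Spike-in scaling turned the median change in log2 P/FM to 1.32, with 0 sensitive, 13 resistant and 9 inducible genes. Of all mRNAs 0.77% were then sensitive. The same scaling gave a median change in A of 0.75, with 11 genes higher by 1 or more, where 24.5% of all mRNAs were. Centring both arrays on their medians gave -0.53 for log2 P/FM, with 14 sensitive, 1 resistant and 4 inducible genes, where 27.3% of all mRNAs were sensitive. For A it gave -0.0075, with 0 genes higher and 2 lower by 1 or more, where 2.27% of all mRNAs were higher. Shares of resistant, inducible or lower mRNAs among all mRNAs were not computed for the alternatives. 

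Other choices touched fewer values. Counting each of 63 probes by itself gave relative changes in log2 P/FM of 0.62 for TRAP and TRAM and -1.66 for OST. Of the 63, 41 were sensitive (65.1%), against 45.2% of all probes, and 4 were inducible. In A 12 were higher by 1 or more, where 13.4% of all probes were. With A above 7, which 26 genes passed, the relative change was -0.0787 for SRP and -0.57 for signal peptidase, and Srp9 came to 0.0016. There 0 genes were inducible and 3 were higher in A by 1 or more, where 10.9% of all mRNAs were. With no limit on A the relative change in log2 P/FM of TRAP and TRAM was -0.10, and relative changes in A were 0.35 for SRP, 0.13 for Sec61, 0.26 for signal peptidase, 0.72 for OST and 0.49 for the glycan precursor enzymes. Among mRNAs with every signal well above background 1 gene was inducible. The log2 of summed signals gave OST a relative change of 0.33 in abundance. Only probes well above background gave relative changes in log2 P/FM of 0.002 for TRAP and TRAM and -1.59 for OST.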

Other observations

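Probes of the same gene names with accessions other than RefSeq coding mRNAs took no part in the comparisons. Tusc3 had such a probe (BC003311), well above background in all 4 signals, with log2 P/FM of 2.24 in control and 0.45 with thapsigargin. This probe changed by -1.80 in log2 P/FM and 0.94 in A, close to the -1.85 and 1.00 of the RefSeq probe of Tusc3. Further such probes of Srp9, Sec63 and Srpr were not well above background, with A in control of 4.77, 3.52 and 2.92.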
